A study of Homo sapiens with 24 samples.

Results

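The genes described here are 10 transcription regulators of plasma cell and B cell identity: IRF4, XBP1, PRDM1, POU2AF1, IKZF1, IKZF3, MEF2C, KLF13, PAX5 and BCL6. They were named as known regulators of these cells, with no threshold on a measured value, and all 10 were found among the 26249 gene entries. The 24 RNA libraries came from 2 established human cell lines, H929 and MM1S, both of multiple myeloma, a cancer of plasma cells. The 8 groups of 3 libraries were each line with DMSO (the vehicle) or with YKL-5-124, a compound directed at the kinase CDK7 per the series title (YKL below), for 6 h or 24 h. H929 was dosed at 83 nM and MM1S at 98 nM (DMSO labels carry these figures as well), so a difference between lines cannot be told apart from one of dose. As the labels do not say how the 3 libraries of a group were raised, each p-value reflects the scatter of these libraries, whether from separate cultures or from technical repeats.

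A B cell becomes an antibody-secreting plasma cell when IRF4 and PRDM1 (the repressor Blimp-1) silence the B cell programme held by PAX5 and BCL6, and XBP1 expands the secretory machinery. Myeloma cells keep that state, and IRF4, the coactivator POU2AF1 and the Ikaros family proteins IKZF1 and IKZF3 are known for their role in the growth of such cells. CDK7 is the kinase of the general transcription factor TFIIH and also acts on kinases of the cell cycle.

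Levels were read as FPKM (by definition, read counts scaled to transcript length and library depth) from libraries that read transcript 3′ ends. They are therefore compared here between groups for 1 gene and not between genes. The gene values of a library summed to between 361698 and 2.52e+06, so the deposited values do not share 1 library total. On the deposited scale the ERCC spike-in transcripts were level across libraries, and the sum of all genes over the sum of ERCC ran from 2.52 to 17.1. That ratio was 12.6 to 17.1 in H929 with DMSO and 4.53 to 8.98 in H929 after 24 h of YKL. In MM1S it was 7.80 to 10.0 with DMSO at 6 h, 2.77 to 5.72 with DMSO at 24 h and 2.52 to 3.01 with YKL at 24 h. Results are therefore given both as deposited and after median-of-ratios rescaling (rescaled), which takes out what moves all genes of a library alike. In these bulk samples, fewer cells and less RNA per cell cannot be told apart. The ERCC transcripts scattered most in MM1S YKL 6 h replicate 2 and MM1S DMSO 24 h replicate 1 (SD of 0.964 and 0.580 on the log2 scale, over 0.5 in no other library). Some results that turn on these libraries are given without them too. A gene was called at an adjusted p under 0.05 in limma-trend on log2(FPKM + 1), over the 12418 genes that reached 1 FPKM in 3 or more libraries.

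Both lines carried the RNA of plasma cells. Group means were 230 to 644 FPKM for SDC1 (syndecan-1), 164 to 1455 FPKM for TNFRSF17 (the receptor BCMA) and 64.6 to 197 FPKM for SLAMF7. CD38, another plasma cell surface protein, had group means of 9.79 to 15.5 FPKM in H929 but 0.406 to 1.83 FPKM in MM1S. FGFR3 and WHSC1, used as markers of H929, summed to 92.6 to 265 FPKM in its libraries and 4.25 to 24.8 FPKM in those of MM1S. As deposited the 6 genes used as markers of MM1S did not separate the lines over all libraries. They summed to 2003 to 7547 FPKM in H929 and 1916 to 6823 FPKM in MM1S. Most of these sums came from 1 of the genes, ITGB7, at 1927 to 7393 FPKM in H929 and 1798 to 6636 FPKM in MM1S. The sums therefore describe mainly that gene. Rescaled, the 6 genes summed to 2803 to 3325 in H929 and 5038 to 5741 in MM1S with DMSO at 6 h, without overlap. With DMSO at 24 h the rescaled sums overlapped, at 2739 to 4381 and 4308 to 5346. With YKL they were apart, at 2329 to 2617 and 5788 to 6412 (6 h) and 2983 to 3971 and 6436 to 7813 (24 h). MAF, a factor known from MM1S, had deposited DMSO means of 20.7 FPKM in H929 and 45.2 FPKM in MM1S at 6 h. At 24 h these were 16.2 and 16.4 FPKM. With YKL the MAF means were 18.4 and 47.7 FPKM at 6 h and 17.1 and 28.9 FPKM at 24 h. Of 10 genes each, 3 T cell markers, 2 monocyte markers and 2 epithelial or fibroblast markers passed the filter, and CD3D, CD14 and EPCAM stayed under 1 FPKM in all 24 libraries. The summed level of the T cell list was 1.97 to 7.42 FPKM. The monocyte and the epithelial and fibroblast lists reached 37.8 and 34.4 FPKM in H929, and 6.63 and 2.76 FPKM in MM1S.

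IRF4, XBP1, PRDM1, POU2AF1, IKZF1, IKZF3, MEF2C and KLF13 passed the filter, each with at least 3.49 FPKM in every library, while PAX5 and BCL6 were under 1 FPKM in all 24 and were not tested. In H929 at 6 h, 1 of the 8 tested members, XBP1, fell on the deposited scale, where 1.16% of all tested genes were called lower. The YKL values of 6 members lay below all DMSO values there, against 12.5% of genes. After rescaling 4 members were called, XBP1, POU2AF1 and IKZF3 lower and PRDM1 higher, against 9.30% of genes called in either direction. The median log2 change of the 8 members was -0.49 as deposited and -0.29 rescaled, beside -0.06 and 0.07 for all genes.

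In H929 at 24 h, XBP1 was again the 1 member called on the deposited scale, where 35.4% of genes were called lower. XBP1 and IKZF3, 2 of the 8 members, lay wholly below DMSO, against 45.6% of genes. After rescaling 6 members were called higher (IRF4, PRDM1, POU2AF1, IKZF1, MEF2C and KLF13), against 20.8% of genes. The members' median was -0.18 as deposited and 0.61 rescaled, where that of all genes was -0.46 and 0.13.

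In MM1S at 6 h, 1 member, POU2AF1, fell on the deposited scale, with 10.0% of genes called lower. The values of 5 members (XBP1, POU2AF1, IKZF1, IKZF3 and MEF2C) lay wholly below DMSO, against 36.8% of genes. After rescaling POU2AF1 was called lower and PRDM1 higher, with 15.5% of genes called. In MM1S at 24 h no member was called as deposited, where 7.46% of genes were, and 1 member (PRDM1) lay wholly above DMSO, against 3.30% of genes. After rescaling 6 members were called higher (XBP1, PRDM1, POU2AF1, IKZF3, MEF2C and KLF13), against 14.4% of genes. The members' median in MM1S was -0.51 at 6 h and 0.30 at 24 h as deposited, and -0.06 and 0.57 rescaled, beside all-gene medians of -0.29, -0.12, 0.05 and 0.05.

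**Figure D1:**
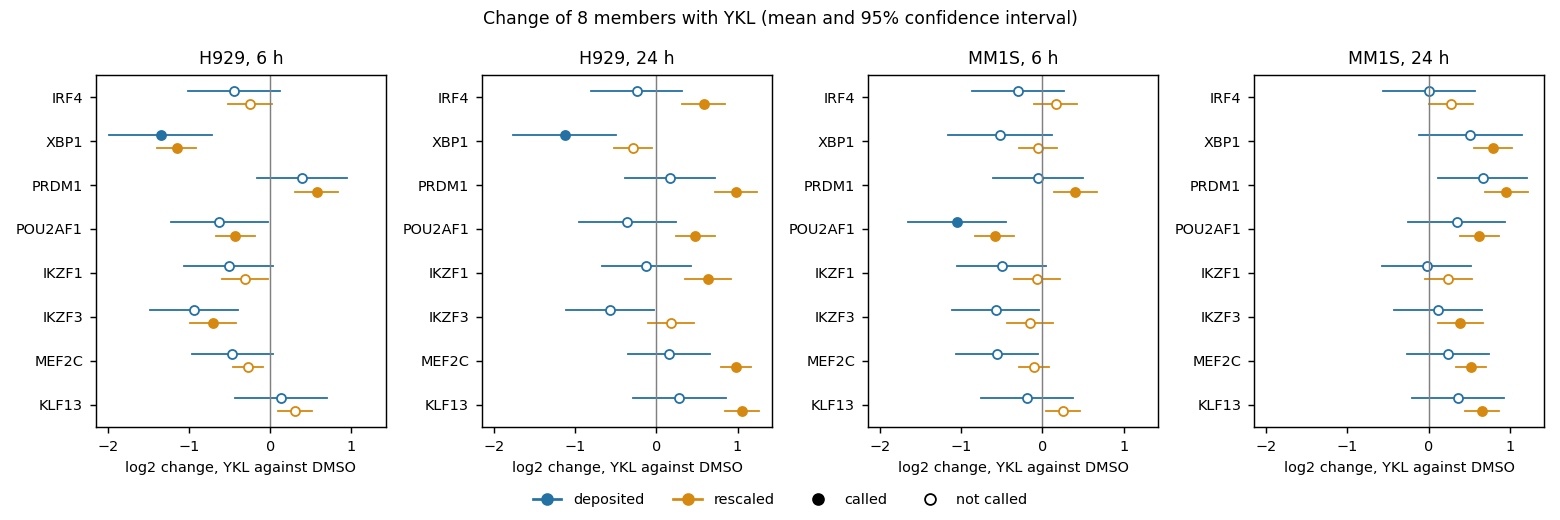
Log2 change with YKL against DMSO of the 8 tested members in each line and time, as deposited (blue) and rescaled (orange). Points are limma estimates, lines their 95% confidence intervals, and filled points were called at an adjusted p under 0.05; PRDM1 lies above 0 in every rescaled estimate and XBP1 is lowest in H929 at 6 h.

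XBP1 encodes the leucine zipper factor that drives the secretory pathway of plasma cells. Its promoter is shown because XBP1 was the member that fell most in H929; the RefSeq sequence (GRCh38.p14, chr22:28800520-28800819, minus strand, 250 bases before to 50 after the start) held CCAAT boxes, in capitals, at -93 and -52 from the start site.
XBP1: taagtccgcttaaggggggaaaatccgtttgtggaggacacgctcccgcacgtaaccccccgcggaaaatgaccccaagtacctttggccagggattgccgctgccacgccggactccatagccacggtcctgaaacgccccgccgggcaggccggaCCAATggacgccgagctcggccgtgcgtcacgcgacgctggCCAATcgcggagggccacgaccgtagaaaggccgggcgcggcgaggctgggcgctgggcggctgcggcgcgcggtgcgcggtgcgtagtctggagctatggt
In H929 at 6 h the XBP1 level was 2738, 3755 and 3515 FPKM with DMSO and 1037, 1537 and 1369 FPKM with YKL. The groups did not overlap, and the YKL mean was 0.394 of the DMSO mean. XBP1 fell by a log2 change of -1.35 ± 0.31 (SE, n = 3 against 3, adjusted p = 0.0202) as deposited and -1.15 ± 0.11 rescaled (adjusted p = 2.23e-06). The deposited call was lost without DMSO replicate 2, DMSO replicate 3, YKL replicate 1 or YKL replicate 3 (adjusted p of 0.103, 0.0831, 0.0863 and 0.0608), while the rescaled call held without each library of the comparison.

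At 24 h XBP1 in H929 was at 3132, 3209 and 2666 FPKM with DMSO and 1666, 868 and 1764 FPKM with YKL. Replicate 2 with YKL was the lowest of the 6, and no YKL library reached the DMSO range. The deposited log2 change was -1.13 ± 0.31 (adjusted p = 0.00627), and -0.80 without YKL replicate 2 (adjusted p = 0.0594). Rescaled, the levels were 1818, 1655 and 1632 with DMSO and 1535, 1293 and 1354 with YKL, a log2 change of -0.29 ± 0.11 that was not called (adjusted p = 0.0539). XBP1 was called lower on that scale without YKL replicate 1 (log2 change of -0.36, adjusted p = 0.0358) and without both libraries with scattered ERCC, which belong to MM1S (adjusted p = 0.0263).

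In MM1S the XBP1 level was 1274, 1252 and 925 FPKM with DMSO and 825, 763 and 790 FPKM with YKL at 6 h. The YKL values were the lower ones without being called (log2 change of -0.52, adjusted p = 0.283), and rescaled the change was -0.05 (adjusted p = 0.815). At 24 h XBP1 in MM1S was at 357, 874 and 365 FPKM with DMSO and 633, 612 and 861 FPKM with YKL, so that DMSO replicate 2 lay above every YKL library. The rescaled levels were 803, 1081 and 1001 with DMSO and 1613, 1465 and 1910 with YKL. XBP1 rose there by 0.79 ± 0.11 rescaled (adjusted p = 2.31e-05), while the deposited change of 0.52 ± 0.31 was not called (adjusted p = 0.406).

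Genes of the secretory pathway that XBP1 serves were followed as a list of 32, all of which passed the filter. As deposited 1, 22, 3 and 3 of them were called lower in H929 at 6 h, H929 at 24 h, MM1S at 6 h and MM1S at 24 h, and none was called higher. Of all genes 1.16%, 35.4%, 10.0% and 6.77% were called lower there, so the MM1S counts (3 of 32) lay near the background. Rescaled, 3 rose and 3 fell in H929 at 6 h, 7 rose and 9 fell in H929 at 24 h, 5 rose and 3 fell in MM1S at 6 h, and 4 rose and 7 fell in MM1S at 24 h, where 9.30%, 33.3%, 15.5% and 27.8% of all genes were called in either direction. The list medians were -0.08, -0.83, -0.38 and -0.32 as deposited and 0.11, -0.03, 0.07 and -0.09 rescaled, beside deposited all-gene medians of -0.06, -0.46, -0.29 and -0.12 and rescaled all-gene medians of 0.07, 0.13, 0.05 and 0.05. HERPUD1, which acts in the degradation of misfolded proteins of the endoplasmic reticulum, fell in all 4 comparisons on both scales, by deposited log2 changes of -1.62, -1.52, -1.47 and -0.86 (adjusted p of 0.00229, 0.000159, 0.00164 and 0.04999). Its groups overlapped in the last of these, MM1S at 24 h. HSPA5, the chaperone BiP, went from a mean of 999 FPKM to 252 FPKM in H929 at 24 h, a deposited log2 change of -2.05 (adjusted p = 1.25e-05) and a rescaled one of -1.21 (adjusted p = 1.20e-08). In MM1S at 24 h, where the XBP1 RNA was called higher after rescaling, 7 genes of the list were called lower and 4 higher on that scale. HERPUD1 and HSPA5 were among the 7, with changes of -0.60 and -0.43 (adjusted p of 0.00432 and 0.00194). The read-out does not separate spliced from unspliced XBP1 RNA.

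**Figure D2:**
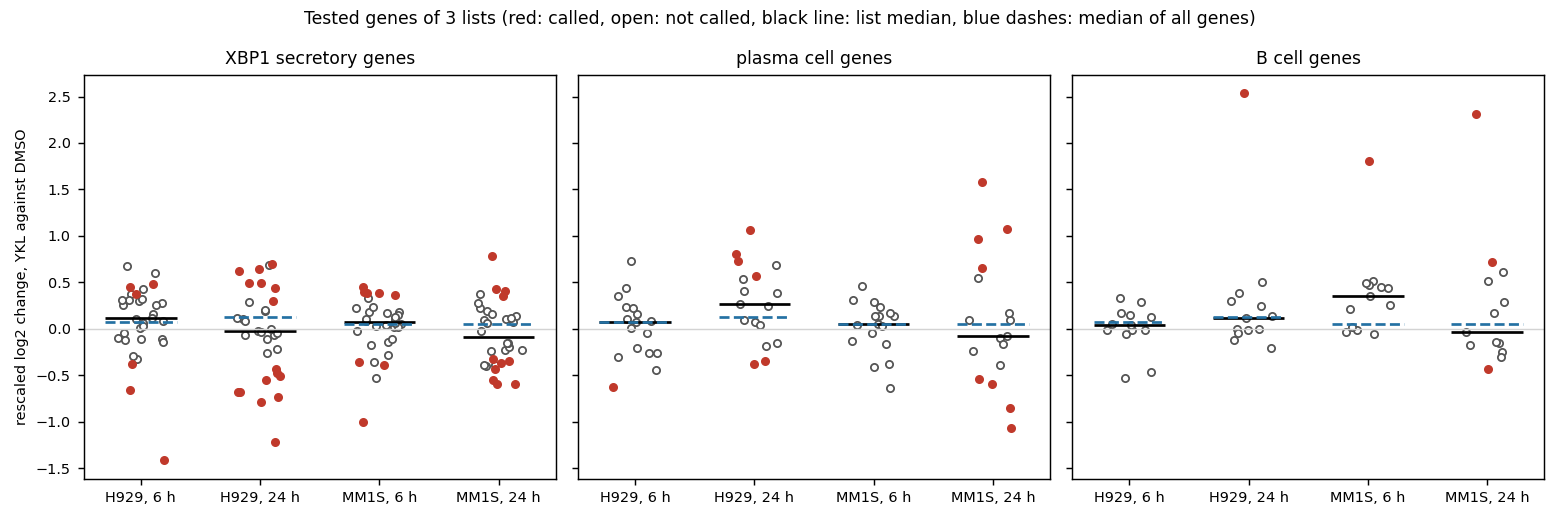
Rescaled log2 change with YKL against DMSO of each tested gene of 3 lists (32 secretory, 17 plasma cell and 13 B cell genes) in the 4 comparisons, with called genes in red. Black lines are list medians and blue dashes the median of all tested genes; the secretory list holds called genes on both sides of 0 in each comparison.

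PRDM1 encodes Blimp-1, the repressor that shuts down the B cell programme. It was the member with a positive rescaled change called in all 4 comparisons, and its RefSeq promoter is shown for that reason (GRCh38.p14, chr6:106086086-106086385, plus strand); it held none of the motifs searched, so no base is in capitals.
PRDM1: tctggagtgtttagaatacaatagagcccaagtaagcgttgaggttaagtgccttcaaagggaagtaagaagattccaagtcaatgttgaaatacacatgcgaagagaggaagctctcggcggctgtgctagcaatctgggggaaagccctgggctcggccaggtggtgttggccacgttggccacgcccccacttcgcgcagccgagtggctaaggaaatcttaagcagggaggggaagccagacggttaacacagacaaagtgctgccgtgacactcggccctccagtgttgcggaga
In H929 PRDM1 was at 36.1, 41.9 and 40.4 FPKM with DMSO and 40.0, 65.3 and 53.8 FPKM with YKL at 6 h. At 24 h it was at 35.2, 42.2 and 32.1 FPKM with DMSO and 40.9, 32.0 and 52.5 FPKM with YKL. These groups overlapped at both times, and the deposited changes of 0.39 and 0.17 were not called (adjusted p of 0.541 and 0.650). Rescaled, PRDM1 was at 22.2, 20.5 and 20.7 with DMSO and 30.8, 35.6 and 29.7 with YKL at 6 h. At 24 h the rescaled values were 20.5, 21.8 and 19.6 with DMSO and 37.7, 47.6 and 40.3 with YKL. Every YKL library was above every DMSO library on this scale, and PRDM1 rose by 0.57 ± 0.13 at 6 h (adjusted p = 0.00700) and 0.98 ± 0.13 at 24 h (adjusted p = 5.97e-06), to 1.51 and 2.03 times the DMSO mean.

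In MM1S PRDM1 was at 54.0, 52.8 and 41.9 FPKM with DMSO and 55.6, 48.8 and 38.9 FPKM with YKL at 6 h, with a deposited change of -0.06 (adjusted p = 0.930). At 24 h it was at 18.7, 26.3 and 10.4 FPKM with DMSO and 27.0, 28.4 and 28.5 FPKM with YKL, without overlap, and the deposited change of 0.67 was not called (adjusted p = 0.155). Without DMSO replicate 2 PRDM1 was called higher there (0.95, adjusted p = 0.0274). Rescaled, PRDM1 rose by 0.40 ± 0.13 at 6 h (adjusted p = 0.0363), where the deposited sign was negative, and by 0.96 ± 0.13 at 24 h (adjusted p = 9.92e-06), to 1.34 and 1.94 times the DMSO mean. The 6 h call was lost without DMSO replicate 1, 2 or 3 or YKL replicate 1 or 2 (adjusted p of 0.0614, 0.0715, 0.109, 0.120 and 0.135), and without both libraries with scattered ERCC (0.34, adjusted p = 0.0584). ATG5, an autophagy gene on the opposite strand, spans the 3′ end of PRDM1 in GENCODE v29, and whether strand was used in counting is not given in the sources used here. ATG5 was at 1.20 to 8.21 FPKM and was not called with YKL in any of the 4 comparisons on either scale.

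**Figure D3:**
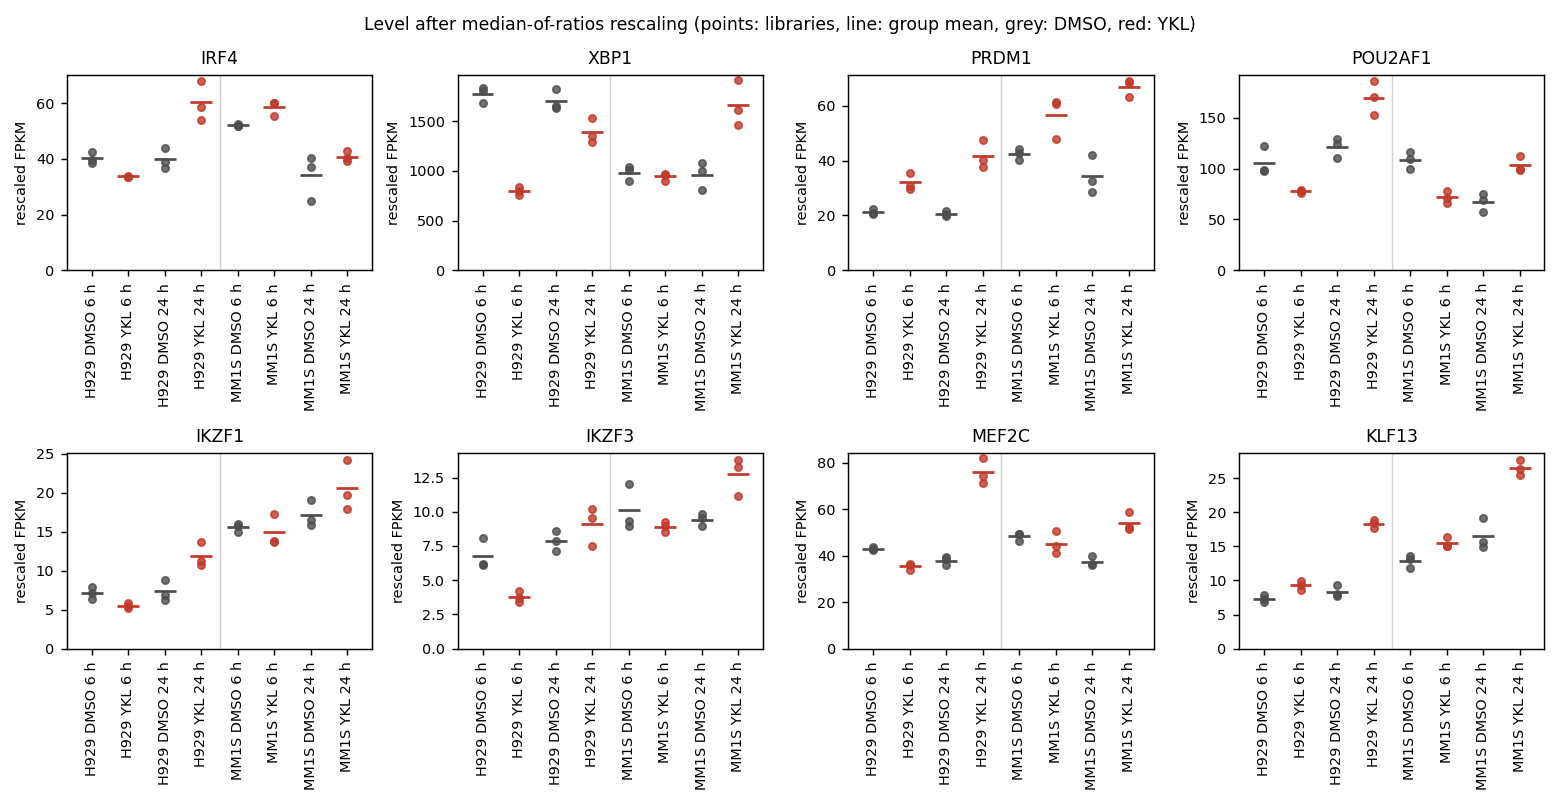
Rescaled FPKM of the 8 tested members in each library (points) with group means (lines), DMSO in grey and YKL in red, on axes from 0. PRDM1 is higher in every YKL library than in every DMSO library of the same line and time, while the XBP1 mean with YKL at 6 h is 0.449 of the DMSO mean in H929 and 0.963 in MM1S.

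IRF4 encodes the interferon regulatory factor on which myeloma cells are known to depend. Its RefSeq promoter is shown as that of the central factor of the set (GRCh38.p14, chr6:391502-391801, plus strand) and held a TATA box (TATAAA, in capitals) at -32.
IRF4: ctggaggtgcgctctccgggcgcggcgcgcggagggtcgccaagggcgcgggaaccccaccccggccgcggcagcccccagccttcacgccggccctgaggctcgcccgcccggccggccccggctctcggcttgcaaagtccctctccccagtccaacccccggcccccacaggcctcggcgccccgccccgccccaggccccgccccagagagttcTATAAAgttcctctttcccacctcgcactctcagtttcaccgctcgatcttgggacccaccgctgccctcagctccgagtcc
With DMSO at 6 h IRF4 in H929 was at 64.5, 79.0 and 83.1 FPKM, and with YKL at 43.5, 62.3 and 60.8 FPKM. At 24 h the values were 63.0, 85.2 and 63.6 FPKM with DMSO and 58.6, 45.7 and 76.5 FPKM with YKL. The 6 h groups were apart and the 24 h groups overlapped, and neither deposited change was called (-0.45, adjusted p = 0.474, and -0.24, adjusted p = 0.515). Rescaled, the 24 h levels were 36.6, 43.9 and 38.9 with DMSO and 54.0, 68.1 and 58.7 with YKL. On that scale IRF4 rose by 0.58 ± 0.13 (adjusted p = 0.00140), so its sign turned with the scale. At 6 h the rescaled change was -0.25 ± 0.13 (adjusted p = 0.249).

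In MM1S IRF4 was at 63.6, 65.0 and 53.8 FPKM with DMSO and 55.0, 43.9 and 48.9 FPKM with YKL at 6 h. At 24 h it was at 11.1, 29.9 and 14.7 FPKM with DMSO and 16.8, 16.4 and 18.1 FPKM with YKL. The spread of the DMSO libraries at 24 h covered all 3 YKL values. No IRF4 change in MM1S was called: -0.30 and 0.01 as deposited (adjusted p of 0.511 and 0.999) and 0.16 and 0.28 rescaled (adjusted p of 0.439 and 0.114). Without DMSO 24 h replicate 3 the rescaled change at 24 h was 0.41 and was called (adjusted p = 0.0235).

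POU2AF1 encodes a coactivator that works with octamer-binding factors. In MM1S at 6 h it was at 134, 123 and 121 FPKM with DMSO and 65.4, 52.6 and 63.8 FPKM with YKL. The groups were far apart, with the YKL mean at 0.480 of the DMSO mean. POU2AF1 fell by -1.05 ± 0.29 as deposited (adjusted p = 0.0234) and -0.59 ± 0.11 rescaled (adjusted p = 0.00176). The deposited call was lost without DMSO replicate 1 or 2 or YKL replicate 2 or 3 (adjusted p of 0.0872, 0.0617, 0.0925 and 0.0627), and without both libraries with scattered ERCC (-0.95, adjusted p = 0.0851), where the rescaled call held (-0.53, adjusted p = 0.00504).

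At 24 h POU2AF1 in MM1S was at 25.5, 55.7 and 27.5 FPKM with DMSO and 44.1, 41.3 and 45.1 FPKM with YKL, with DMSO replicate 2 above all YKL libraries. Rescaled, it was at 57.3, 68.9 and 75.4 with DMSO and 112, 98.9 and 100.1 with YKL, and it rose by 0.63 ± 0.11 (adjusted p = 0.000329). The deposited change of 0.35 was not called (adjusted p = 0.599).

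In H929 POU2AF1 was at 160, 249 and 191 FPKM with DMSO and 103, 140 and 141 FPKM with YKL at 6 h. At 24 h it was at 190, 241 and 211 FPKM with DMSO and 185, 102 and 243 FPKM with YKL. It was lower in every YKL library at 6 h and overlapped at 24 h. As deposited neither change was called (-0.63, adjusted p = 0.305, and -0.36, adjusted p = 0.353), while rescaled it fell by -0.43 at 6 h (adjusted p = 0.0221) and rose by 0.48 at 24 h (adjusted p = 0.00281). The 6 h call was lost without DMSO replicate 2 or YKL replicate 1, 2 or 3 (adjusted p of 0.142, 0.0531, 0.0718 and 0.0635).

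IKZF1 and IKZF3 encode the zinc finger factors Ikaros and Aiolos, which the cereblon ubiquitin ligase destroys when bound by lenalidomide. IKZF3 in H929 was at 9.89, 16.5 and 12.1 FPKM with DMSO and 5.51, 6.73 and 6.11 FPKM with YKL at 6 h. The YKL mean was 0.476 of the DMSO mean and the groups did not overlap. IKZF3 fell by -0.71 ± 0.13 rescaled (adjusted p = 0.00245), and its deposited change of -0.94 ± 0.26 was not called (adjusted p = 0.0592). At 24 h IKZF3 in H929 was at 13.5, 13.8 and 14.1 FPKM with DMSO and 10.4, 5.04 and 13.3 FPKM with YKL, which was not called (-0.57, adjusted p = 0.0865, and 0.18 rescaled, adjusted p = 0.339).

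In MM1S IKZF3 was at 11.4, 11.1 and 12.5 FPKM with DMSO and 8.21, 7.33 and 6.90 FPKM with YKL at 6 h, which was not called on either scale (adjusted p of 0.155 and 0.495). At 24 h its rescaled level was 9.80, 8.93 and 9.56 with DMSO and 13.3, 13.8 and 11.1 with YKL. The groups were apart and IKZF3 rose by 0.39 ± 0.13 on that scale (adjusted p = 0.0350), a call lost without DMSO replicate 2 or 3 or YKL replicate 1 or 2 (adjusted p of 0.0989, 0.0630, 0.102 and 0.124).

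IKZF1 in H929 was at 11.6, 16.2 and 12.3 FPKM with DMSO and 7.17, 10.6 and 9.45 FPKM with YKL at 6 h, which was not called (adjusted p of 0.374 as deposited and 0.163 rescaled). At 24 h its rescaled level was 8.82, 6.25 and 6.94 with DMSO and 13.7, 10.7 and 11.3 with YKL. IKZF1 rose by 0.63 ± 0.14 on that scale (adjusted p = 0.00121), where the deposited change was -0.12 (adjusted p = 0.752). In MM1S IKZF1 was called at neither time, with rescaled changes of -0.06 and 0.25 (adjusted p of 0.818 and 0.195).

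MEF2C and KLF13 complete the tested members; MEF2C is an activator of B lineage cells and KLF13 a zinc finger factor of the Krüppel-like family. KLF13 in H929 had rescaled levels of 9.28, 7.73 and 7.95 with DMSO and 18.4, 18.8 and 17.7 with YKL at 24 h. The YKL libraries were all far above DMSO, and KLF13 rose by 1.05 ± 0.10 (adjusted p = 1.41e-07), to 2.20 times the DMSO mean. In MM1S at 24 h its rescaled levels were 15.7, 19.2 and 14.9 with DMSO and 26.4, 27.7 and 25.5 with YKL, a rise of 0.66 ± 0.10 (adjusted p = 5.67e-05). As deposited KLF13 was at 15.99, 14.99 and 12.99 FPKM with DMSO and 20.0, 12.6 and 23.1 FPKM with YKL in H929 at 24 h, which was not called (0.29, adjusted p = 0.437). At 6 h KLF13 was not called in either line, with rescaled changes of 0.30 and 0.25 (adjusted p of 0.0648 and 0.0960). Its RefSeq promoter is shown because KLF13 had the highest rescaled estimate of the members in the comparisons of YKL with DMSO (GRCh38.p14, chr15:31326585-31326884, plus strand). It held a CCAAT box at -223 and, on the other strand (read here as ATTGG), at -248, in capitals.
KLF13: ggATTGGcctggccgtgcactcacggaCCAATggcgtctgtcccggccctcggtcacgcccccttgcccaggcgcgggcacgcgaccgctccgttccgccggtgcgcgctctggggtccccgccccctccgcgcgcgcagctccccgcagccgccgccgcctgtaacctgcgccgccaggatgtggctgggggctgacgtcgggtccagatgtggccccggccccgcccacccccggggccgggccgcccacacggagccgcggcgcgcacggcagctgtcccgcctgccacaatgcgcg
MEF2C in H929 had rescaled levels of 36.0, 38.4 and 39.4 with DMSO and 71.2, 81.9 and 74.4 with YKL at 24 h. It rose by 0.98 ± 0.09 (adjusted p = 6.03e-08) without any overlap. In MM1S at 24 h the rescaled levels were 36.2, 36.0 and 39.9 with DMSO and 58.8, 51.5 and 52.1 with YKL, a rise of 0.52 ± 0.09 (adjusted p = 0.000140). The deposited changes of MEF2C at 24 h, 0.16 and 0.24, were not called (adjusted p of 0.649 and 0.686). At 6 h MEF2C was lower in every YKL library of both lines as deposited, at 47.0, 66.8 and 61.6 FPKM against 70.9, 87.9 and 82.9 FPKM in H929 and 40.3, 32.5 and 41.0 FPKM against 56.6, 61.1 and 51.2 FPKM in MM1S. Neither was called (adjusted p of 0.382 and 0.138 as deposited, 0.0582 and 0.492 rescaled). MEF2C-AS2, an antisense gene, spans the 3′ end of MEF2C in GENCODE v29. MEF2C-AS1, another antisense gene of the locus, was at 0.315 to 4.03 FPKM and was called in H929 at 24 h after rescaling (1.09, adjusted p = 0.0408); its part in the MEF2C value was not tested.

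**Figure D4:**
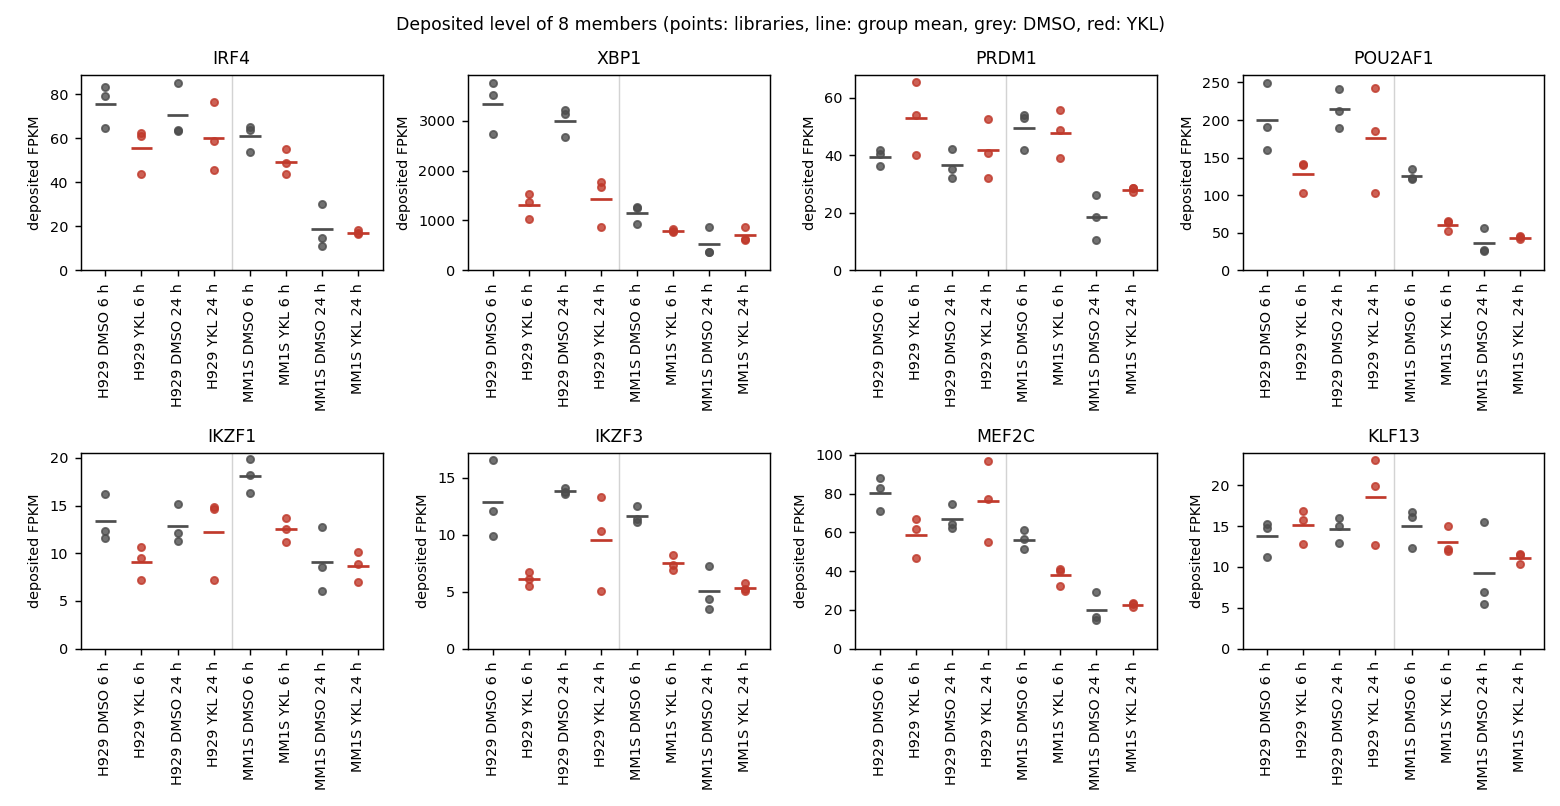
Deposited FPKM of the 8 tested members in each library (points) with group means (lines), DMSO in grey and YKL in red, on axes from 0. Of the 3 MM1S DMSO libraries at 24 h, replicate 2 lies apart for XBP1, at 874 FPKM against 357 and 365 FPKM in the others. In MM1S with DMSO the group means of all 8 members are lower at 24 h than at 6 h.

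The promoters of 8 members had an entry in the RefSeq table, and POU2AF1 and IKZF3 were not matched. Searched on both strands of these 300-base windows were the octamer motif ATGCAAAT, the E-box with the letters CACGTG, the box written CCAAT, the box written TATAAA, an interferon-type element GAAANNGAAA and an Ets-IRF element GGAANNGAAA, of which the last pair can overlap. Besides the sites already given, the PAX5 window held TATAAA at -238, and those of PRDM1, IKZF1, MEF2C and BCL6 held none of these motifs. Of 27305 promoters of that length, 35.7% held CCAAT, 12.0% TATAAA, 7.43% CACGTG, 3.65% the interferon-type element, 2.84% the Ets-IRF element and 1.80% the octamer. A match describes letters only and not a site in use.

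PAX5 and BCL6, the B cell factors that plasma cells silence, were at 0.114 to 0.801 and 0.0705 to 0.345 FPKM over the 24 libraries. Genes with no signal hold a small value in this table, and the most common value of a library served as its floor. BCL6 was at 0.941 to 3.08 times that floor and over 2 times in 7 libraries. PAX5 was at 1.35 to 8.17 times the floor and over 2 times in 19 libraries, with the highest multiple in H929 YKL 24 h replicate 3. Per group PAX5 was at 4.38 to 5.98 times the floor in H929 with DMSO at 24 h and 3.91 to 8.17 times with YKL, so that these groups overlapped, and no fold is given at these levels.

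**Figure D5:**
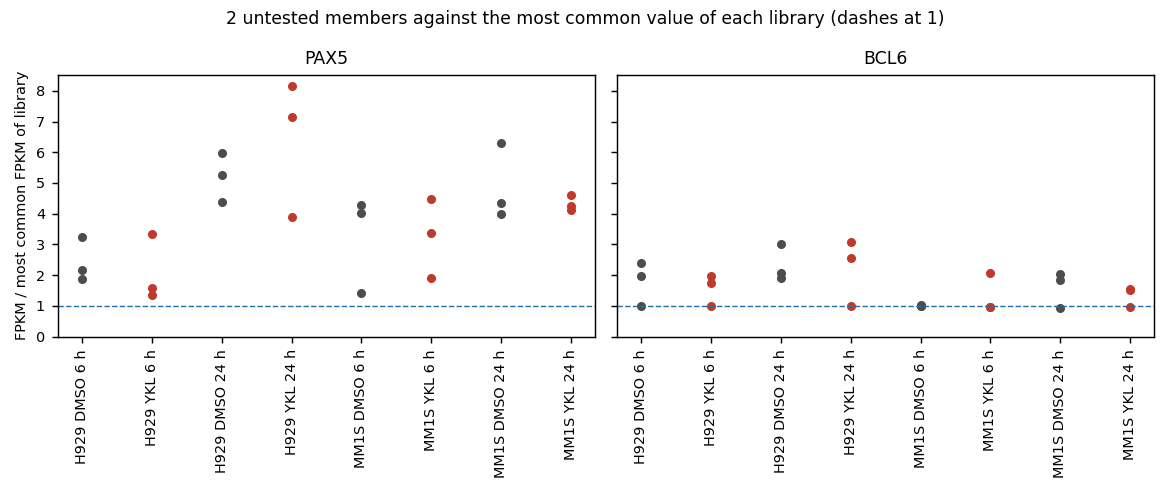
PAX5 and BCL6 in each library (points, DMSO in grey and YKL in red) as a multiple of the most common FPKM of that library, on axes from 0 with dashes at 1. BCL6 stays at or under 3.08 times that value and PAX5 at or under 8.17 times.

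Of 20 genes of the B cell programme 13 passed the filter. CD22, BLK and MS4A1 stayed under 1 FPKM in all libraries, while CD79B, a signalling chain of the B cell receptor, was at 14.4 to 68.2 FPKM over both lines. HLA-DRA, a chain of MHC class II, was at 44.3 to 236 FPKM in MM1S and 0.236 to 2.92 FPKM in H929, and CD74, the invariant chain of MHC class II, was at 106 to 494 FPKM in MM1S and 0.135 to 3.68 FPKM in H929. VPREB3, a chaperone of the pre-B cell receptor, was the 1 gene of the list called with YKL as deposited: it rose in H929 at 24 h from a mean of 1.57 to 9.96 FPKM (2.18, adjusted p = 0.000134), in MM1S at 6 h from 1.37 to 5.63 FPKM (1.48, adjusted p = 0.0150) and in MM1S at 24 h from 1.495 to 7.43 FPKM (1.79, adjusted p = 0.00353). Of all 12418 tested genes 332, 115 and 85 were called higher as deposited in these 3 comparisons, and 4396, 1245 and 841 lower. VPREB3 rose in the same 3 comparisons after rescaling, by 2.54, 1.81 and 2.31. The MM1S 6 h call was lost as deposited without DMSO replicate 1 or YKL replicate 3 (adjusted p of 0.0678 and 0.0741). In the H929 6 h comparison VPREB3 was not called (0.30, adjusted p = 0.800). The rescaled medians of the B cell list were 0.04, 0.12, 0.36 and -0.03 in the 4 comparisons, beside 0.07, 0.13, 0.05 and 0.05 for all genes.

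Of 19 plasma cell genes with an entry 17 passed the filter, and 6 of them fell in H929 at 24 h as deposited, while 4 rose and 2 fell rescaled. These shares lay near those of all genes, of which 35.4% were called lower as deposited and 33.3% in either direction rescaled. MZB1, which assists antibody assembly, fell in both lines at 24 h, by -1.22 in H929 and -1.12 in MM1S as deposited (adjusted p of 0.00204 and 0.0150) and by -0.38 and -0.85 rescaled (adjusted p of 0.0187 and 1.94e-05). In MM1S 2 fell and 1 rose at 24 h as deposited, and 4 fell and 4 rose rescaled. Of all genes 7.46% and 27.8% were called there in either direction. The rescaled list medians at 24 h were 0.27 in H929 and -0.08 in MM1S, beside all-gene medians of 0.13 and 0.05. CCR10, a chemokine receptor of plasma cells, rose there from a mean of 65.0 to 146 FPKM (1.30, adjusted p = 0.00863). As deposited the MM1S call of MZB1 was lost without DMSO replicate 2 or YKL replicate 1 or 2 (adjusted p of 0.0870, 0.0675 and 0.0743), and that of CCR10 without DMSO replicate 1 (0.92, adjusted p = 0.0728), which is also a library with scattered ERCC.

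Families and partners of the members were counted in the same way. Of 10 tested Krüppel-like factors other than KLF13, 1, 5, 4 and 1 fell in the 4 comparisons as deposited, where 1.16%, 35.4%, 10.0% and 6.77% of all genes did. Rescaled, 2, 1, 3 and 1 fell and 0, 1, 1 and 3 rose, with medians of -0.07, 0.02, -0.31 and 0.12. Of all genes 9.30%, 33.3%, 15.5% and 27.8% were called on that scale in either direction. KLF2, a factor of lymphocyte quiescence, fell in all 4, by -1.30, -1.78, -1.97 and -1.02 as deposited (adjusted p of 0.0261, 0.000133, 0.000394 and 0.0421) and by -1.02, -1.04, -1.54 and -0.86 rescaled (adjusted p of 0.00940, 0.00202, 0.000220 and 0.0103). The deposited KLF2 call was lost in H929 at 6 h without DMSO replicate 1, 2 or 3 or YKL replicate 2 or 3 (adjusted p from 0.0651 to 0.114) and in MM1S at 24 h without DMSO replicate 2 or YKL replicate 1, 2 or 3 (adjusted p from 0.0700 to 0.224). Of 5 tested PRDM genes, PRDM2 rose in H929 at 6 h from a mean of 8.81 to 21.4 FPKM (1.17, adjusted p = 0.0107), and it was called higher in all 4 comparisons after rescaling (1.28, 0.48, 0.93 and 0.68), with a deposited change of the opposite sign in H929 at 24 h (-0.27, adjusted p = 0.399). The deposited 6 h call was lost without DMSO replicate 2 or YKL replicate 3 (adjusted p of 0.0553 and 0.0640). As deposited PRDM8 (-0.60, adjusted p = 0.00693) and PRDM15 (-0.88, adjusted p = 0.0172) fell in H929 at 24 h and PRDM13 (-0.88, adjusted p = 0.00468) fell in MM1S at 6 h. The rescaled changes of PRDM8 and PRDM15 (-0.11 and -0.12) were not called, while PRDM13 was called lower on that scale too (-0.71, adjusted p = 0.0234). The deposited PRDM15 call was lost without DMSO replicate 2 or YKL replicate 2 (adjusted p of 0.0849 and 0.126). Of 7 tested IRF genes other than IRF4, 1 was called as deposited: IRF3 fell in H929 at 24 h (-0.99, adjusted p = 0.00563). Its rescaled change was -0.16 (adjusted p = 0.469), and the deposited call was lost without YKL replicate 2 (-0.66, adjusted p = 0.0564). Rescaled at 24 h, 3 IRF genes rose in H929 and 4 in MM1S and none fell, against 20.8% and 14.4% of genes called higher. Their medians there were 0.38 and 0.71, beside 0.13 and 0.05 for all genes. The 3 tested MEF2 genes other than MEF2C were summed on the rescaled scale. At 6 h the sums were 37.6 to 43.3 with DMSO and 47.7 to 50.7 with YKL in H929. In MM1S at 6 h these were 26.6 to 31.6 and 39.7 to 50.8. At 24 h the sums were 35.4 to 37.6 with DMSO and 68.7 to 70.3 with YKL in H929. In MM1S at 24 h these were 42.2 to 50.6 and 79.0 to 81.7. The deposited sums overlapped in both lines at both times.

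Of 25 tested partners and cofactors, 1 rose and 7 fell in H929 at 24 h and 5 fell in MM1S at 6 h as deposited, while rescaled 9 rose and 1 fell in H929 at 24 h and 1 rose and 2 fell in MM1S at 6 h. The rescaled counts stand against 33.3% and 15.5% of all genes called in either direction. The 7 deposited falls in H929 at 24 h stand against 35.4% of all genes called lower, and the 5 in MM1S against 10.0%. Among them ID3, an inhibitor of helix-loop-helix factors, fell at 24 h in H929 from a mean of 243 to 67.9 FPKM (-1.87, adjusted p = 0.000101) and in MM1S from 11.7 to 4.51 FPKM (-1.08, adjusted p = 0.0353). Its rescaled changes were -1.04 and -0.89 (adjusted p of 2.66e-05 and 0.000163). The deposited MM1S call was lost without DMSO replicate 1 or 2 or YKL replicate 1 or 2 (adjusted p of 0.104, 0.190, 0.127 and 0.142). ETS1, an activator of lymphoid cells, fell in MM1S at 6 h by -1.26 as deposited and -0.85 rescaled (adjusted p of 0.00411 and 0.00106). Of the 6 genes of the cereblon ligase, through which the Ikaros proteins are degraded, 1 (RBX1) was called as deposited, lower in H929 at 24 h (-0.97, adjusted p = 0.0133), and not without DMSO replicate 2 or YKL replicate 2 (adjusted p of 0.0537 and 0.0945). CRBN itself was not called as deposited and was called higher rescaled at 24 h in H929 (0.54, adjusted p = 0.0204) and MM1S (0.97, adjusted p = 0.000266). Of all genes 20.8% and 14.4% were called higher there. The rescaled sum of the 6 genes was lower with YKL in MM1S at 24 h, at 254 to 273 against 291 to 329 with DMSO. In H929 at 24 h these sums overlapped, at 264 to 276 with YKL and 250 to 270 with DMSO.

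The responses to YKL were compared between the lines by the difference of their log2 changes (H929 minus MM1S), with line and dose joined. As deposited no member differed, where 0.169% of genes did at 6 h and 1.36% at 24 h. Rescaled, XBP1 differed at 6 h by -1.10 ± 0.16 (adjusted p = 0.00156), the 1 member called, where 0.411% of genes were called lower. At 24 h XBP1 differed by -1.08 ± 0.16 (adjusted p = 0.000252) and MEF2C by 0.46 ± 0.12 (adjusted p = 0.0199), where 12.4% of genes were called in either direction. The deposited difference of XBP1 at 24 h was -1.65 ± 0.44 (adjusted p = 0.0542). The MEF2C call was lost without H929 YKL 24 h replicate 2 (0.40, adjusted p = 0.0569), and its sign was the opposite as deposited (-0.09, adjusted p = 0.904). IRF4 and KLF13 were called at 24 h only when a library was left out, IRF4 (0.51, adjusted p = 0.0149) without MM1S DMSO replicate 1 and KLF13 (0.47) without H929 DMSO replicate 1 or MM1S DMSO replicate 3 (adjusted p of 0.0481 and 0.0428). For PRDM1 the rescaled difference at 24 h was 0.03, with a 95% confidence interval from -0.35 to 0.40.

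The response at 24 h minus that at 6 h was positive for the members after rescaling. In H929 7 of 8 members were called higher, all but PRDM1, against 5.77% of genes, while as deposited none was, with 6.47% of genes called in either direction. MEF2C had the largest of these rescaled differences, 1.25 ± 0.12 (adjusted p = 2.64e-06), and XBP1 had 0.86 ± 0.16 (adjusted p = 0.00127), as its fall at 6 h was the deeper. For PRDM1 the difference was 0.41, with a 95% confidence interval from 0.04 to 0.78 (adjusted p = 0.174). In MM1S POU2AF1 (1.21 ± 0.16, adjusted p = 5.73e-05), XBP1 (0.84 ± 0.16, adjusted p = 0.00162) and MEF2C (0.62 ± 0.12, adjusted p = 0.00234) were called higher rescaled, against 4.30% of genes. PRDM1 was not called there rescaled (0.55, adjusted p = 0.0527). It was called without MM1S YKL 6 h replicate 2 (0.62, adjusted p = 0.0485) or MM1S DMSO 24 h replicate 1 (0.70, adjusted p = 0.00689). As deposited no member was called in MM1S, where 0.0805% of genes were.

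The lines were also compared with DMSO alone. At 6 h XBP1 was 2.90 times as high in H929 as in MM1S as deposited (1.54 ± 0.31, adjusted p = 0.000259), the 1 member called, against 36.4% of genes called higher. Rescaled, XBP1 stayed higher (0.86, adjusted p = 2.17e-06), and IKZF1 (-1.03), PRDM1 (-0.97), KLF13 (-0.74), IKZF3 (-0.51) and IRF4 (-0.36) were lower in H929, where 53.6% of genes were called. The sign of IRF4 and IKZF3 was positive as deposited, and the IRF4 call was lost without H929 DMSO replicate 1 or 2 (adjusted p of 0.0526 and 0.0647).

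With DMSO at 24 h all tested members but IKZF1 were called higher in H929 as deposited, 7 of 8 against 67.9% of genes. Rescaled, XBP1 (0.83, adjusted p = 2.82e-06) and POU2AF1 (0.85, adjusted p = 2.73e-06) were higher and IKZF1 (-1.13), KLF13 (-0.91) and PRDM1 (-0.69) lower in H929, with 58.2% of genes called, so the members' counts lay near the share of all genes. The signs of IKZF1, IKZF3 (-0.24 rescaled, not called), KLF13 and PRDM1 turned with the scale at 24 h, while XBP1 was higher in H929 at both times on both scales.

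In MM1S the members differed between 24 h and 6 h with DMSO alone, and the cause was not tested. All 8 were called lower at 24 h than at 6 h as deposited, by log2 changes from -0.75 (KLF13) to -1.86 (POU2AF1), against 56.0% of genes. Rescaled, IRF4 (-0.63, adjusted p = 0.00362), POU2AF1 (-0.69, adjusted p = 0.000811) and MEF2C (-0.36, adjusted p = 0.0101) were called lower and KLF13 higher (0.34, adjusted p = 0.0296), where 15.6% of genes were called. The KLF13 call was lost without DMSO 6 h replicate 1, 2 or 3 or DMSO 24 h replicate 2 (adjusted p of 0.0660, 0.0552, 0.0775 and 0.118). PRDM1 was not called rescaled (-0.31, adjusted p = 0.0932), but was called lower without DMSO 24 h replicate 1 (-0.46, adjusted p = 0.0228). In H929 no member was called between 24 h and 6 h with DMSO on either scale, where 0.145% of genes were called as deposited and 1.02% rescaled, and the rescaled estimates ran from -0.18 (MEF2C) to 0.20 (POU2AF1).

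The genes whose pattern was most like each member were sought by Pearson's r over the 24 libraries on the rescaled log2 scale, after taking out the line means, among 6736 genes. These r values describe libraries that share groups and scaling, and carry no test. The nearest gene was RSRP1 for KLF13 (0.963), CCNDBP1 for PRDM1 (0.938), DEPTOR for IKZF1 (0.931), GLCCI1 for MEF2C (0.922) and NUAK1 for IKZF3 (0.892). For XBP1 it was SUV420H1 (0.885), for POU2AF1 GNPDA1 (0.859) and for IRF4 MFGE8 (0.838).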

How the data were processed

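RNA was measured in 24 libraries of 2 cell lines (8 groups of 3, from the titles). Per the labels' protocols, total RNA was made into QuantSeq 3′ libraries. HISAT2, Cuffnorm and hg19 are named, with no versions, in the submitters' processing notes. The authors deposited 1 table per library whose values were read as FPKM, with 26249 genes and 92 ERCC transcripts; neither the unit nor a spike-in scaling is stated in the sources used here. FPKM divides by gene length, which 3′ reads do not need, and this drops out of ratios between groups for 1 gene. Depth is unknown.

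From these values, two-sided limma-trend tests (limma 3.58.1, R 4.3.3), with Benjamini-Hochberg adjustment within a comparison, were fitted to log2(FPKM + 1) of all 24 libraries with 8 group means, in 12 comparisons; such fold changes understate those of low genes. Rescaled values were divided by a median-of-ratios factor over genes whose geometric mean reached 5 FPKM. The script was tested on simulated data. Members and lists were chosen with earlier results of these data known. Genes outside the members were named by rule (at most 2 called genes with the smallest adjusted p per list and YKL comparison). Markers, the other comparisons of VPREB3, HSPA5, HERPUD1 and PRDM2, CRBN and the rescaled values were added after their values were seen. Alternatives were scaling, pseudocount, filters, groups fitted, replicate block and left-out libraries. No per-sample column was unused (0).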

Additional observations from a re-analysis of the deposited data

Results flagged for a closer look

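In 13 cases the response of a member to YKL differed between lines or between times by a test of the difference itself (limma, adjusted p under 0.05), each on the rescaled scale and none as deposited. Between lines (H929 minus MM1S, n = 3 per group) these were XBP1 at 6 h (-1.10) and XBP1 and MEF2C at 24 h (-1.08 and 0.46). Between times (24 h minus 6 h) in H929 they were IRF4 (0.83), XBP1 (0.86), POU2AF1 (0.91), IKZF1 (0.95), IKZF3 (0.89), MEF2C (1.25) and KLF13 (0.75). In MM1S they were XBP1 (0.84), POU2AF1 (1.21) and MEF2C (0.62). Groups of 3 were too small to look for single outlying libraries.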

How the results depend on the processing

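Rescaling, which divides out what moves all genes of a library alike, changed the members' calls most. In this order the 12 comparisons were YKL against DMSO in H929 at 6 h and 24 h and in MM1S at 6 h and 24 h, the line difference of that response at 6 h and 24 h, its time difference in H929 and MM1S, H929 against MM1S with DMSO at 6 h and 24 h, and 24 h against 6 h with DMSO in H929 and MM1S. As deposited 1, 1, 1, 0, 0, 0, 0, 0, 1, 7, 0 and 8 members were called, and rescaled 4, 6, 2, 6, 1, 2, 7, 3, 6, 5, 0 and 4. Leaving out each library in turn gave 0 to 1, 0 to 2, 0 to 1, 0 to 2, 0 to 0, 0 to 2, 0 to 0, 0 to 3, 1 to 1, 6 to 8, 0 to 0 and 7 to 8 as deposited, and 3 to 4, 6 to 7, 1 to 2, 5 to 6, 1 to 1, 1 to 3, 7 to 7, 3 to 4, 5 to 6, 5 to 6, 0 to 0 and 3 to 5 rescaled. The highest deposited counts of MM1S at 24 h (2: PRDM1 and XBP1), of the line difference at 24 h (2: POU2AF1 and XBP1) and of the MM1S time difference (3) came without MM1S DMSO 24 h replicate 2. Of all 12418 genes 729, 2396 and 323 were called without that library, against 926, 169 and 10 with it. With YKL in H929 at 6 h, no filter, only the groups compared and the replicate block each called 0 members. These settings called 206 of 26249, 64 of 12418 and 148 of 12418 genes. With only the groups compared, 4 members were called in MM1S at 6 h and 3 between the DMSO lines at 6 h. There 2457 and 6617 of 12418 genes were called. A filter at 5 FPKM called 1 member in the line difference at 24 h (171 of 8251 genes). Leaving out both libraries with scattered ERCC called 0 in MM1S at 6 h (673 of 12418 genes). Over 8 comparisons same-numbered libraries correlated at -0.21 to 0.21, with 7 of 24 pairs over 0.1, and in 7 comparisons the numbers did not pair the libraries. All 3 pairs were over 0.1 as deposited (0.20, 0.13 and 0.11) between the DMSO lines at 24 h, where the replicate block called 7 members, as many as without it. With the replicate block after rescaling, an alternative chosen after seeing the data, the counts were 3, 6, 2, 5, 1, 1, 7, 3, 6, 5, 0 and 4. Of all 12418 genes 812, 3870, 1528, 3051, 47, 1123, 981, 996, 6629, 7232, 105 and 1889 were called in that setting. Rescaled without both libraries with scattered ERCC, also chosen after seeing the data as was leaving out libraries on the rescaled scale, the counts with YKL were 5 in H929 at 6 h, 7 in H929 at 24 h and 5 in MM1S at 24 h. Of all 12418 genes 1600, 4720 and 3495 were called there. In MM1S at 6 h the POU2AF1 call held and the PRDM1 call was lost, as given above. The counts were 1 and 3 for the line differences, 7 and 4 for the time differences in H929 and MM1S, 6 between the DMSO lines at 6 h and 5 for DMSO time in MM1S. Of all genes 199, 1558, 1648, 1379, 7165 and 1078 were called in these. Signs of called values turned only on rescaled scales. With YKL in H929 at 24 h these were IRF4 (0.58), POU2AF1 (0.48) and IKZF1 (0.63), and in MM1S at 6 h PRDM1 (0.40). In the line difference at 24 h they were MEF2C (0.46, and 0.48 without the scattered libraries) and IRF4 (0.51, without them). Between the DMSO lines at 6 h they were IRF4 (-0.36) and IKZF3 (-0.51). Between the DMSO lines at 24 h they were PRDM1 (-0.69, and -0.54 without the scattered libraries), IKZF1 (-1.13 and -1.05), IKZF3 (-0.24 and -0.21), KLF13 (-0.91 and -0.94) and, without them only, MEF2C (-1.73e-05). For DMSO time in MM1S they were IKZF1 (0.13 and 0.0494), KLF13 (0.34 and 0.37) and, without them only, XBP1 (0.0866). Of 512 alternative values of the YKL comparisons 446 kept their side of the threshold (26 of them with another sign, called under neither setting), 15 lost and 40 gained a call, and 11 turned. Of 1216 in the other comparisons the numbers were 1106 (59 of them with another sign), 25, 56 and 29. The cause of these changes was not tested. The files give no read counts, so what depth limits is unknown, and 3 libraries a group leave wide intervals as deposited.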
